A study of Mus musculus with 10 samples.

Results

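Of the 36047 genes to which the deposited transcripts were assigned, 38 belong to glycolysis, to lactate handling or to the hypoxia response, and these were followed in mouse hepatic stellate cells after exposure to amphiregulin (Areg). They are a fixed list of names, set with earlier results of these data known, and hold 2 glucose transporters, 15 enzymes of the glycolytic steps, 4 PFKFB enzymes that tune phosphofructokinase, 2 lactate dehydrogenases, 2 lactate exporters, 2 hypoxia-inducible factors, 2 prolyl hydroxylases that mark those factors for decay, and 9 other genes reported as targets of the factors. Areg activates EGFR, the receptor of epidermal growth factor, and stellate cells are the retinoid-storing cells of the liver sinusoid that can turn into matrix-producing myofibroblasts. The 5 Areg libraries came from cells given 500 ng/mL recombinant mouse Areg for 4 h and the 5 control libraries from cells given a control treatment for the same time. The labels describe all the cells as quiescent stellate cells of male C57BL/6 mice, cultured for 5 h beforehand and held in starving medium during stimulation. Starvation was thus shared by both groups. Markers of sinusoidal endothelial cells, hepatocytes and macrophages were expressed as well, at the levels given below. The age of the mice, the oxygen tension and the glucose content of the medium were not stated in the labels, nor whether libraries of a group came from separate animals, so every p-value rests on library-to-library spread that may be technical.

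Glycolysis splits glucose into pyruvate in the cytosol, and the lactate dehydrogenases turn pyruvate into lactate, which monocarboxylate transporters carry out of the cell. The hypoxia-inducible factors (HIFs) are pairs of a stable partner and an oxygen-sensitive subunit encoded by Hif1a or Epas1. In oxygen, prolyl hydroxylases modify that subunit, the VHL ubiquitin ligase binds it and the proteasome destroys it, so the factor is controlled mostly at the level of the protein. When it persists, the factor binds a short core, ACGTG or GCGTG, near its targets, among them most genes of glycolysis. In stellate cells, a switch towards glycolysis is known as part of activation. The files hold RNA alone, and no protein, oxygen or lactate was analysed here.

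Promoter windows from RefSeq (GRCm38.p6), reaching from 250 bases before to 50 bases after a transcription start, were found for 34 of the 38 genes, 53 windows in all. The cores ACGTG and GCGTG, searched on both strands and so also as CACGT and CACGC, occurred in 40 of the 53 windows (75.5%), against 14380 of the 32851 windows of all genes (43.8%). The windows of the 38 genes also held more CG dinucleotides, which both cores contain, at a mean of 18.2 per window against 12.4 in all windows. Among the genes that differed between the groups, 11 of the 15 windows of those lower with Areg held a core (73.3%) and both windows of those higher did, beside 24 of 33 windows of genes that were not called (72.7%). 3 windows are shown, those of the genes whose difference between Areg and control cells passed the test under every alternative processing tried. Capitals mark the cores on either strand, which run together where they overlap, as in CACGTG, which reads as ACGTG on both strands. The windows lie at chr12:73907617-73907916 (plus strand, Hif1a), chr11:120948817-120949116 (plus strand, Slc16a3) and chr7:138909457-138909756 (minus strand, Bnip3), each printed 5′ to 3′ on the strand of its gene. Those of Hif1a and Slc16a3 lie inside the GENCODE spans of the genes, whose outermost transcripts begin further upstream.
Hif1a: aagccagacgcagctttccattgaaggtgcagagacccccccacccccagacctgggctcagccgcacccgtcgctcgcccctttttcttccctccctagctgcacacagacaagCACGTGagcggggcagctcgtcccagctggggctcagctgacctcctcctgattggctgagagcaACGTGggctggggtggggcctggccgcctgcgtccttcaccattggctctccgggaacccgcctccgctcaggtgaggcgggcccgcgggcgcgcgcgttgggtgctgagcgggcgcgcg
Slc16a3: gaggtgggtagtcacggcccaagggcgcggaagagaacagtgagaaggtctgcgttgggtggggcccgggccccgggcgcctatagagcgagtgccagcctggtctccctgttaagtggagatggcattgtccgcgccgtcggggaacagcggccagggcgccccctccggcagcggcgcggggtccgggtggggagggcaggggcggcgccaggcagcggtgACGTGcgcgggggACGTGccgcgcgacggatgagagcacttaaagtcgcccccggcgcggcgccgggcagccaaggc
Bnip3: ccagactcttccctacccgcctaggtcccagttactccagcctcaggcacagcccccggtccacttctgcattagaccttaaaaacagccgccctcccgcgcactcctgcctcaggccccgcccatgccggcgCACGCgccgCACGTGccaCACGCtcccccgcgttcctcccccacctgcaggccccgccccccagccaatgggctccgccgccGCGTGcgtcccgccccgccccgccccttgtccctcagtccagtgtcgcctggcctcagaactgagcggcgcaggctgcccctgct
The Hif1a window held CACGTG, counted on both strands, and a single further core, the Slc16a3 window held 2 cores close to the start, and the Bnip3 window held CACGTG and 3 further cores. These matches describe the letters in the windows, and binding was not measured.

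The libraries held 14365027 to 20057962 estimated counts in the Areg group and 10125184 to 17566891 in the control group. Controls 3 and 4 were the shallowest and stood apart from the others, with scores of 46.6 and 28.6 on the first principal component where the rest had -16.5 to 0.455, and results that rest on them are given below with and without them. Stellate cell markers were expressed, led by Dcn, although Gfap was too low to be tested. Their summed level was 10650 to 11043 CPM in Areg libraries and 11214 to 12082 CPM in control libraries (CPM, each count relative to the TMM-scaled total of its library), and 5 of the 13 tested were lower with Areg. At the same edgeR adjusted p under 0.05, 8.32% of all tested genes were lower and 8.34% higher, which holds beside the marker counts that follow too. Sinusoidal endothelial markers summed to 6272 to 6341 CPM in Areg libraries and 6259 to 6833 CPM in control libraries, with Cdh5 leading, and of 11 tested Stab1 was lower (log2 fold change -0.29). Hepatocyte markers summed to 1692 to 2112 CPM in Areg and 1589 to 2450 CPM in control libraries, the highest value being that of control 3, and of 10 tested Cyp2e1 was higher (0.23) and Hnf4a lower (-0.54). Kupffer cell and macrophage markers gave 704.5 to 763 CPM with Areg and 712.5 to 787 CPM in controls, and none of the 14 was called by edgeR or DESeq2 or had an unadjusted p under 0.05. Cholangiocyte markers, in effect Spp1 (higher, 1.05), gave 82.0 to 95.2 CPM with Areg and 39.7 to 49.8 CPM in controls. Lymphocyte and neutrophil markers stayed at 3.49 to 4.25 CPM with Areg and 2.97 to 6.63 CPM in controls, and portal fibroblast and smooth muscle markers at 48.1 to 51.9 CPM with Areg and 45.8 to 54.2 CPM in controls. No marker gene was at 0 in every library. The part of other cell types in the results below was not tested, and in bulk RNA fewer cells of a type and less RNA per cell cannot be told apart.

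After 4 h with Areg, the RNA of Hif1a was higher while a set of glycolytic enzyme genes, the lactate exporter gene Slc16a3 and the HIF target Bnip3 were lower. The changes were modest, none of the called genes reaching a log2 fold change of 0.5 in either direction. Of the 38 genes, 36 passed the filter on low counts (Aldoc and Car9 did not), and 12 of these 36 (33.3%) differed at an edgeR adjusted p under 0.05, where 16.7% of all 13362 tested genes did. Areg raised 2 of them, Hif1a and Ldhb, beside 8.34% of all tested genes that were higher. It lowered 10, namely Hk1, Pfkl, Aldoa, Tpi1, Pgam1, Eno1, Eno2, Pfkfb4, Slc16a3 and Bnip3, beside 8.32% of all tested genes that were lower. The remaining 24 did not pass the test. The median log2 fold change was -0.10 over the 36 genes and -0.007 over all tested genes, and it was negative for the 36 under each of the 25 alternatives, from -0.17 to -0.05. In CPM, all Areg libraries lay above all controls for 1 of the 36 genes (7.64% of all tested genes) and below them for 9 (7.06% of all tested genes).

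**Figure D1:**
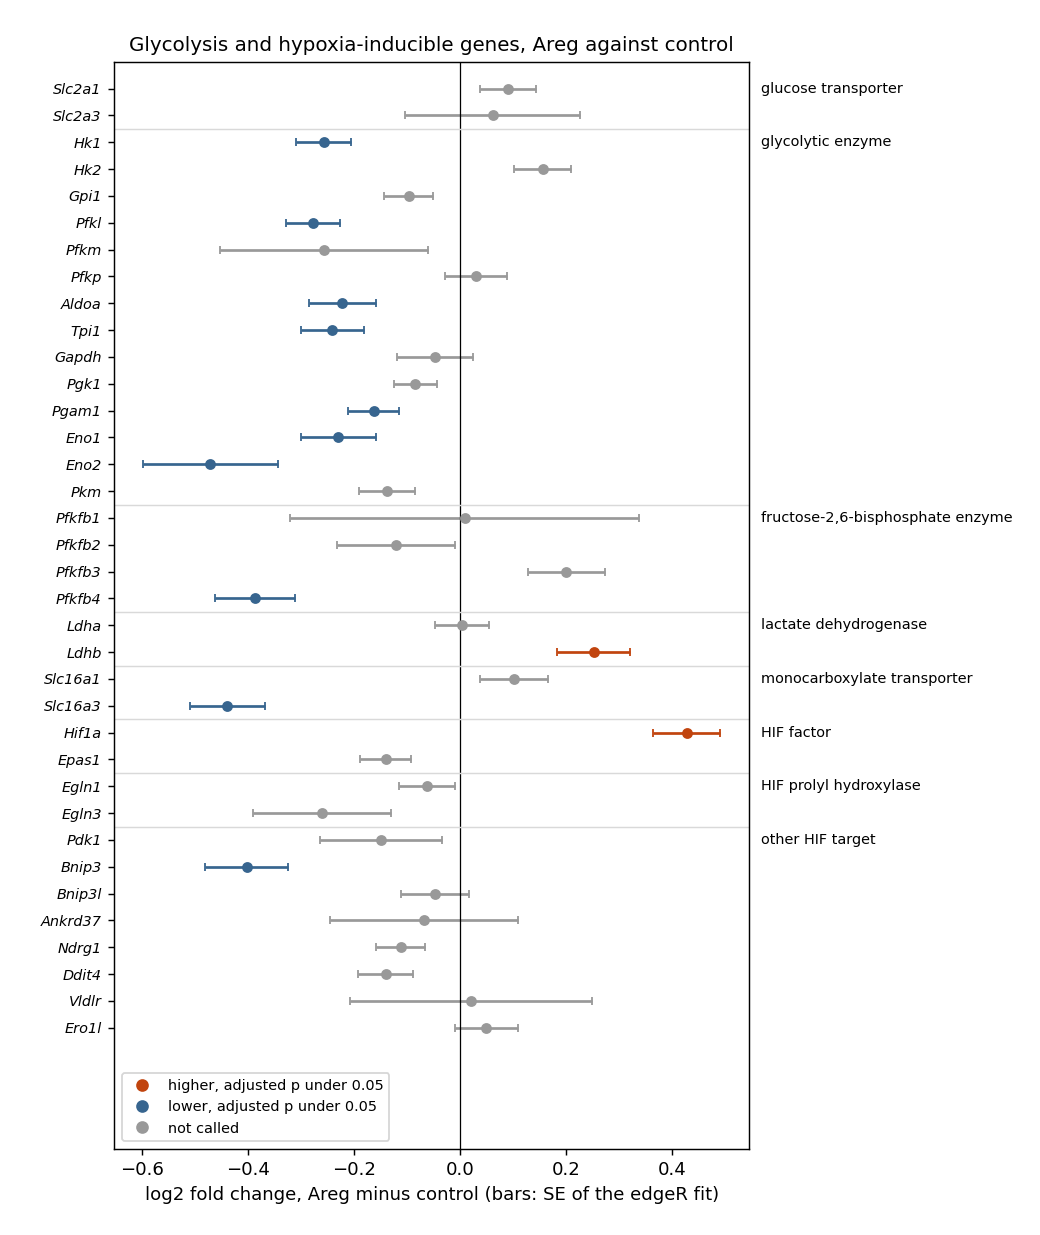
Log2 fold change (Areg minus control) of the 36 tested genes by role, from the edgeR fit on all 10 libraries, with bars for the SE. In it 7 of the 14 tested glycolytic enzyme genes are marked lower and none higher, while Hif1a has the largest positive value, 0.43.

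The calls lay mostly on the glycolytic side. Among the 24 tested genes of glucose uptake, glycolysis and lactate handling, 1 was higher and 9 were lower (41.7% called), with a median log2 fold change of -0.11. Among the 12 tested genes outside glycolysis (the HIFs, their hydroxylases and the other targets), 1 was higher and 1 was lower, which at 16.7% equals the share of all tested genes, and their median was -0.09. Without controls 3 and 4, 3 genes of the glycolytic side were higher and 5 lower, at a median of -0.06. Outside glycolysis 1 was then higher and 2 were lower, at a median of -0.10. In that fit 1147 of all 13693 tested genes were higher and 1031 lower. Whether the 2 sets differ was not tested.

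Of the HIF subunit genes, Hif1a was higher with Areg and Epas1 did not pass the test. Hif1a, which encodes the widely expressed oxygen-sensitive subunit (chromosome 12, 73901375 to 73947530, GRCm38), had 617, 684, 653, 694 and 626 CPM in Areg libraries 1 to 5 and 521, 513, 407, 501 and 490.1 CPM in controls 1 to 5. Every Areg library lay above every control. Its log2 fold change was 0.43 (SE 0.06, edgeR adjusted p = 0.000362), and without controls 3 and 4 it was 0.37 (edgeR adjusted p = 8.18e-06). Epas1, which encodes the related subunit HIF-2 alpha (chromosome 17, 86753700 to 86833410), had 187, 196, 204, 206 and 193 CPM in Areg libraries and 229, 214, 218, 228 and 198 CPM in controls. Control 5 lay inside the range of the Areg libraries, and the log2 fold change of Epas1 was -0.14 (SE 0.05, edgeR adjusted p = 0.0567). Without control 5 Epas1 passed the test, at -0.17 (edgeR adjusted p = 0.0202). With all 10 libraries DESeq2 called Epas1 lower (-0.14, DESeq2 adjusted p = 0.034). So did edgeR with upper quartile factors (adjusted p = 0.035) or a stricter filter on low counts (adjusted p = 0.043). These were the 4 of 25 alternatives that called Epas1. In TPM, which is scaled to transcript length, Hif1a made up 79.7 to 81.2% of the summed level of the pair in Areg libraries and 70.3 to 75.3% in control libraries.

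Neither gene of the prolyl hydroxylases passed the test with edgeR, neither had an unadjusted p under 0.05, and DESeq2 called neither. Egln1, the main oxygen sensor, ranged over 31.3 to 33.3 CPM in Areg libraries and 32.2 to 34.9 CPM in controls. Egln3, whose gene is itself a known HIF target, ranged over 5.48 to 7.66 CPM in Areg libraries and 5.42 to 8.89 CPM in controls, with a log2 fold change of -0.26 (SE 0.13). Control 3 was the lowest control for Egln3, and without it the value was -0.35 (edgeR adjusted p = 0.0487).

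Of the 2 glucose transporter genes on the list, Slc2a1, the GLUT1 gene, held nearly all of the summed TPM. Its share was 99.4% ± 0.128 in Areg libraries and 99.0% ± 0.263 in controls (SD, n = 5 each). The leading Slc2a1 transcript, Slc2a1-204, is annotated for nonsense-mediated decay. It took 50.6% ± 4.84 of the Slc2a1 TPM with Areg and 53.9% ± 7.77 in controls. Glucose uptake was not measured. Slc2a1 ranged over 357 to 391 CPM in Areg libraries and 321 to 378 CPM in controls. Its log2 fold change of 0.09 (SE 0.05) did not pass the test (edgeR adjusted p = 0.254). Controls 3 and 4 held its highest control values, and without both the value was 0.17 (edgeR adjusted p = 0.00479). Slc2a3, the GLUT3 gene, ranged over 2.35 to 3.12 CPM with Areg and 2.21 to 3.72 CPM in controls, with a log2 fold change of 0.06. In TPM it averaged 1.43 ± 0.243 with Areg and 2.26 ± 0.587 in controls (SD, n = 5 each). With an offset for effective transcript length the log2 fold change of Slc2a3 was -0.62 (edgeR adjusted p = 0.0842).

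Of the 14 tested genes of the glycolytic steps, Areg lowered 7 and raised none (50% called, where 16.7% of all tested genes were), and 9 had an unadjusted p under 0.05, as 31.4% of all tested genes did. DESeq2 called 8 lower and 1, Hk2, higher, where over all 13361 genes it called 1287 lower and 1338 higher. The median log2 fold change of the 14 was -0.19. It was negative under every alternative, from -0.21 to -0.07. Controls 3 and 4 were the 2 highest controls for 8 of these 14 genes (57.1%, against 23.2% of all tested genes). Without both of them 3 of the 14 were called lower, the median being -0.11, and 1031 of all 13693 tested genes were called lower. With Areg replicate 2, Areg replicate 3 or control replicate 4 left out singly, 3, 4 and 4 of the 14 were called lower. Over all tested genes those fits called 678 of 13349, 862 of 13348 and 815 of 13559 lower.

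Hk1 and Hk2, the hexokinases that trap glucose as its phosphate, had opposite signs. Hk1 (chromosome 10, 62268855 to 62379908) had 75.2, 65.4, 67.7, 71.6 and 70.3 CPM in Areg libraries and 87.3, 80.5, 86.7, 80.4 and 83.6 CPM in controls. All Areg libraries were below all controls, its log2 fold change being -0.26 (SE 0.05, edgeR adjusted p = 0.00340). Hk2, the inducible hexokinase and a textbook HIF target, ranged over 81.3 to 91.8 CPM in Areg libraries and 72.4 to 83.8 CPM in controls. Its log2 fold change was 0.16 (SE 0.05) with an edgeR adjusted p of 0.0538, and without control 2, the highest control, it was 0.19 (edgeR adjusted p = 0.0299). Per length, Hk2 made up 43.5 to 49.7% of the TPM of the pair in Areg libraries and 37.6 to 44.3% in controls.

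Phosphofructokinase commits sugar to glycolysis and has 3 subunit genes. Pfkl, the liver-type subunit (chromosome 10, 77986947 to 78010083), had 75.8, 70.5, 74.4, 69.2 and 72.7 CPM in Areg libraries and 84.9, 89.4, 83.2, 87.5 and 94.4 CPM in controls. The groups did not overlap, and the log2 fold change of Pfkl was -0.28 (SE 0.05, edgeR adjusted p = 0.00163). Pfkp, the platelet-type subunit, covered 68.3 to 75.8 CPM in Areg libraries and 64.7 to 78.1 CPM in controls, with a log2 fold change of 0.03 (SE 0.06). In TPM the 2 subunits were near equal with Areg, Pfkl taking 49.6% ± 3.06 and Pfkp 48.9% ± 3.22, where controls had 55.5% ± 3.90 and 42.6% ± 3.70 (SD, n = 5 each). Pfkm, the muscle-type subunit, stayed at 1.35 to 2.12 CPM with Areg and 1.72 to 2.79 CPM in controls.

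The middle steps were lower in part. Aldoa, the aldolase of most tissues (chromosome 7, 126795234 to 126800751), had 671, 632, 646, 656 and 665 CPM in Areg libraries and 673, 716, 879, 816 and 733 CPM in controls. All Areg libraries lay below all controls, though Areg 1 and control 1 were almost level. The log2 fold change was -0.22 (SE 0.06, edgeR adjusted p = 0.0223), and the call was lost without Areg 2 (edgeR adjusted p = 0.0679), Areg 3 (edgeR adjusted p = 0.0507) or control 4 (edgeR adjusted p = 0.0624). Without controls 3 and 4 together Aldoa was at -0.11 (edgeR adjusted p = 0.0608). Tpi1, which interconverts the triose phosphates (chromosome 6, 124810586 to 124814296), had 69.5, 68.2, 65.0, 60.1 and 65.7 CPM in Areg libraries and 69.0, 81.3, 81.8, 75.2 and 81.4 CPM in controls. Control 1 lay inside the Areg range and the other controls above it, and the log2 fold change of Tpi1 was -0.24 (SE 0.06, edgeR adjusted p = 0.0117). Gapdh, the glyceraldehyde phosphate dehydrogenase and the most abundant RNA of the 38, ranged over 1231 to 1284 CPM in Areg libraries and 1082 to 1516 CPM in controls, with controls 3 and 4 highest. Its log2 fold change was -0.05 (SE 0.07, edgeR adjusted p = 0.701).

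The lower steps held 3 called genes, all of them sensitive to single libraries. Pgk1, which makes the first ATP of the pathway, had 433 to 441 CPM in Areg libraries and 443 to 479.9 CPM in controls. The groups did not overlap, yet Pgk1 was not called, its log2 fold change being -0.08 (SE 0.04, edgeR adjusted p = 0.174). Pgam1, the phosphoglycerate mutase (chromosome 19, 41911923 to 41918660), had 160.5, 161, 161, 161 and 161 CPM in Areg libraries and 163, 174, 188, 194 and 183 CPM in controls. The Areg libraries were almost level and all below the controls, and the log2 fold change of Pgam1 was -0.16 (SE 0.05, edgeR adjusted p = 0.0288). Its call was lost when any Areg library, control 4 or control 5 was left out, at edgeR adjusted p from 0.0502 to 0.0845. Pgam1 stood at -0.10 without controls 3 and 4 together (edgeR adjusted p = 0.0832).

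Eno1 and Eno2, both enolases, were lower with Areg. Eno1, the common form (chromosome 4, 150236721 to 150248879), had 211, 197, 198, 195 and 200.2 CPM in Areg libraries and 190.1, 221, 263, 256 and 245 CPM in controls. Control 1 was the lowest library of all and the other controls were above every Areg library. The log2 fold change of Eno1 was -0.23 (SE 0.07, edgeR adjusted p = 0.0377). It was lost without Areg 2, Areg 3, Areg 4, Areg 5, control 3, control 4 or control 5, at edgeR adjusted p from 0.0716 to 0.1, and without controls 3 and 4 together Eno1 stood at -0.12 (edgeR adjusted p = 0.248). Eno2, known as the neuronal form (chromosome 6, 124760053 to 124769673), had 4.69, 4.15, 4.69, 5.55 and 4.66 CPM in Areg libraries and 6.03, 6.28, 8.03, 7.16 and 5.59 CPM in controls. The groups did not overlap, though Areg 4 and control 5 were almost level, and the log2 fold change of Eno2 was -0.47 (SE 0.13, edgeR adjusted p = 0.0176). Without Areg 2 the adjusted p of Eno2 was 0.0547 (edgeR), and without controls 3 and 4 it was 0.0977 (edgeR) at a log2 fold change of -0.34.

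Pkm and Gpi1 complete the steps, and neither was called. Pkm, the pyruvate kinase that ends the pathway, ranged over 1037 to 1088 CPM with Areg and 1061 to 1255 CPM in controls, its log2 fold change being -0.14 (SE 0.05, edgeR adjusted p = 0.0847). Without control 1, the lowest control, Pkm passed the test at -0.17 (edgeR adjusted p = 0.0236). Gpi1, the glucose phosphate isomerase, ranged over 294 to 313 CPM with Areg and 304 to 345 CPM in controls, with a log2 fold change of -0.10. Aldoc, below the filter, lay at 0.168 to 0.717 CPM in Areg libraries and 0.169 to 1.00 CPM in controls.

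**Figure D2:**
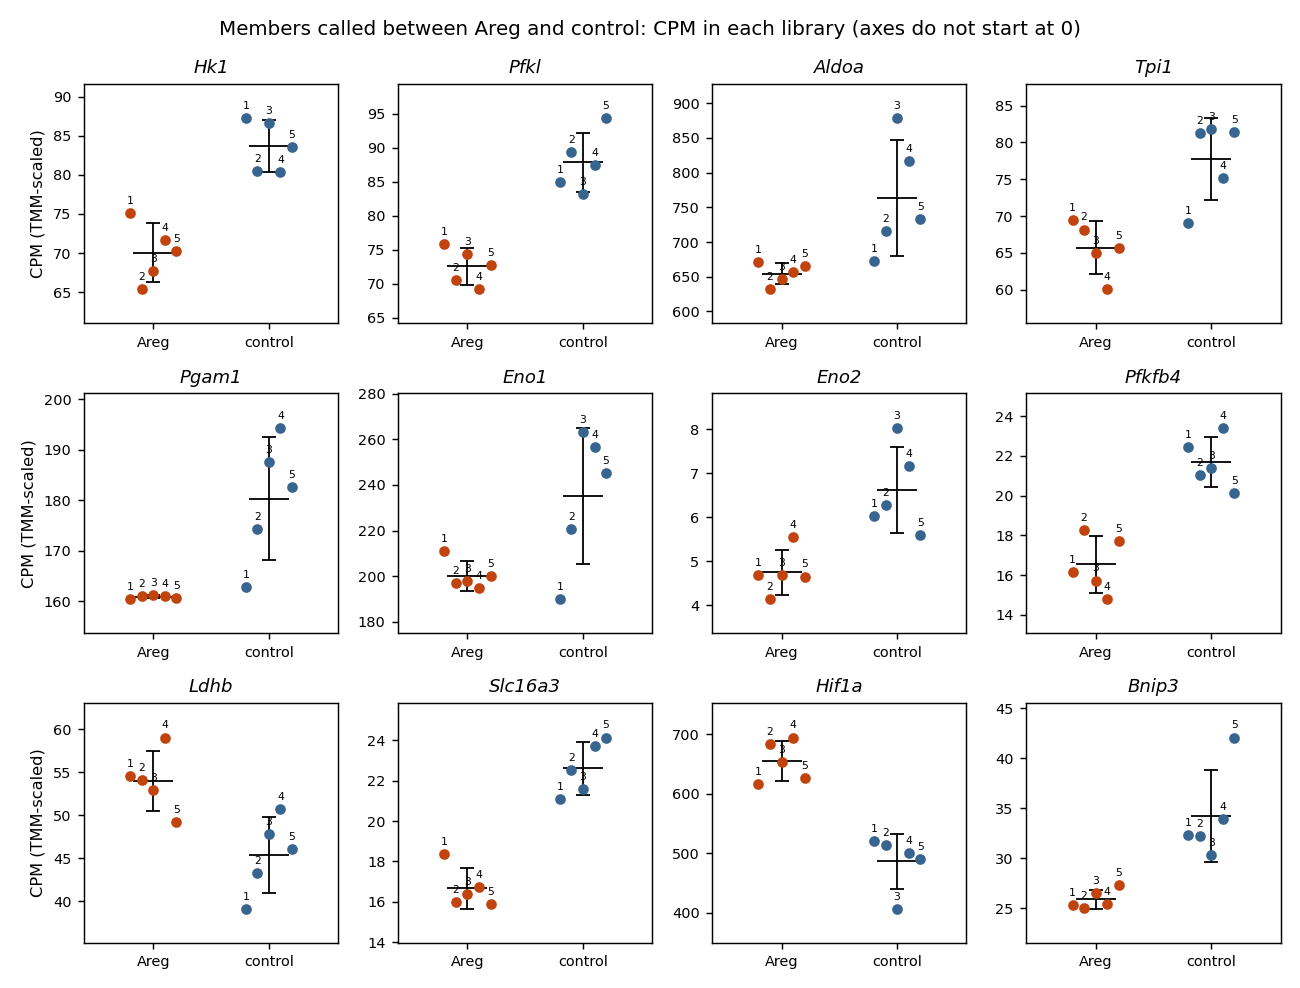
CPM of the 12 called genes in each library (points), with the mean and SD of 5 libraries per group, Areg left of control, on an axis of its own for each gene. Hif1a is higher in all 5 Areg libraries, at 617 to 694 CPM against 407 to 521 CPM, while control 1 lies within the Areg range for Tpi1 and below it for Eno1.

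The PFKFB genes encode bifunctional enzymes that make and remove the strongest allosteric activator of phosphofructokinase. Pfkfb4 (chromosome 9, 108991778 to 109032228) had 16.1, 18.3, 15.7, 14.8 and 17.7 CPM in Areg libraries and 22.4, 21.1, 21.4, 23.4 and 20.1 CPM in controls. The groups did not overlap, and Pfkfb4 was lower, its log2 fold change being -0.39 (SE 0.08, edgeR adjusted p = 0.00284). Pfkfb3, the form whose kinase activity most exceeds its phosphatase activity, ranged over 58.5 to 68.2 CPM with Areg and 47.3 to 62.3 CPM in controls. Its log2 fold change was 0.20 (SE 0.07, edgeR adjusted p = 0.0648), and it passed the test without control 4 (0.25, edgeR adjusted p = 0.0293) or without control 5 (0.24, edgeR adjusted p = 0.0389). Per length, Pfkfb3 took 51.4 to 62.2% of the summed TPM of the 4 genes in Areg libraries and 46.3 to 49.1% in controls, while Pfkfb4 took 21.8 to 35.3% in Areg libraries and 31.9 to 41.6% in controls. Pfkfb2 lay at 8.26 to 9.996 CPM with Areg and 7.53 to 11.4 CPM in controls, and Pfkfb1, the liver form, under 2 CPM in every library.

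At the lactate end, Ldhb was higher and Slc16a3 lower. Ldhb, the heart-type lactate dehydrogenase subunit (chromosome 6, 142490249 to 142507957), had 54.6, 54.1, 52.9, 59.0 and 49.2 CPM in Areg libraries and 39.1, 43.3, 47.8, 50.8 and 46.1 CPM in controls. Control 4 lay above Areg 5, and otherwise the groups were apart. The log2 fold change of Ldhb was 0.25 (SE 0.07, edgeR adjusted p = 0.0201), and without Areg 4, its highest library, it was 0.22 (edgeR adjusted p = 0.0602). Ldha, the muscle-type subunit and a textbook HIF target, covered 189.7 to 211 CPM with Areg and 184 to 216 CPM in controls, and its log2 fold change was 0.004 (SE 0.05). Ldhb took 23.2 to 28.5% of the TPM of the pair in Areg libraries and 21.0 to 27.0% in controls.

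Slc16a3, the HIF-responsive lactate exporter MCT4 (chromosome 11, 120948480 to 120960868), had 18.4, 16.0, 16.4, 16.7 and 15.9 CPM in Areg libraries and 21.1, 22.5, 21.6, 23.7 and 24.1 CPM in controls. The groups did not overlap, and the log2 fold change of Slc16a3 was -0.44 (SE 0.07, edgeR adjusted p = 0.000734). It was -0.43 without controls 3 and 4 (edgeR adjusted p = 0.00053). Slc16a1, the MCT1 gene, ranged over 77.1 to 81.5 CPM with Areg and 64.3 to 82.7 CPM in controls, with a log2 fold change of 0.10 (SE 0.06). Slc16a3 made up 32.2 to 36.6% of the TPM of the pair in Areg libraries and 37.8 to 49.6% in controls. For none of these pairs of related genes was the difference between the genes' responses tested.

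Among the 8 tested genes of the other HIF targets, Bnip3 was called lower and none was called higher (12.5% called, against 16.7% of all tested genes). An unadjusted p under 0.05 was found for 3 of the 8, where 31.4% of all tested genes had one. Their median log2 fold change was -0.09. Bnip3, a receptor for the removal of mitochondria (chromosome 7, 138890836 to 138909519), had 25.3, 25.0, 26.5, 25.4 and 27.3 CPM in Areg libraries and 32.4, 32.2, 30.3, 33.9 and 42.1 CPM in controls. The groups did not overlap and control 5 was the highest library. The log2 fold change of Bnip3 was -0.40 (SE 0.08, edgeR adjusted p = 0.00257), and -0.45 without controls 3 and 4 (edgeR adjusted p = 0.000471). Its relative Bnip3l, which has the same role, ranged over 83.4 to 89.4 CPM with Areg and 77.7 to 97.5 CPM in controls. Controls 3 and 4 were its lowest controls, and the log2 fold change of Bnip3l was -0.05 in all libraries (edgeR adjusted p = 0.66) and -0.15 without both (edgeR adjusted p = 0.0158).

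The other HIF targets did not pass the edgeR test on all 10 libraries. Ndrg1, a stress-responsive gene and a strong hypoxia marker, ranged over 593 to 647 CPM with Areg and 639 to 722 CPM in controls, with a log2 fold change of -0.11 (edgeR adjusted p = 0.109). DESeq2 called Ndrg1 lower, at -0.11 (DESeq2 adjusted p = 0.0494). Ddit4, which encodes the mTOR inhibitor REDD1, ranged over 168 to 184 CPM with Areg and 176 to 212 CPM in controls. Its log2 fold change was -0.14 (edgeR adjusted p = 0.0729), and without control 1, its lowest control, it was -0.17 (edgeR adjusted p = 0.0237). Pdk1, the kinase that closes pyruvate dehydrogenase, lay at 5.63 to 8.87 CPM with Areg and 7.75 to 9.59 CPM in controls. Ero1l, an oxidase of the endoplasmic reticulum, lay at 227 to 252.3 CPM with Areg and 200.3 to 248 CPM in controls. Ankrd37 and Vldlr stayed under 4 CPM in every library, and Car9, the carbonic anhydrase used as a hypoxia marker, under 1 CPM.

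**Figure D3:**
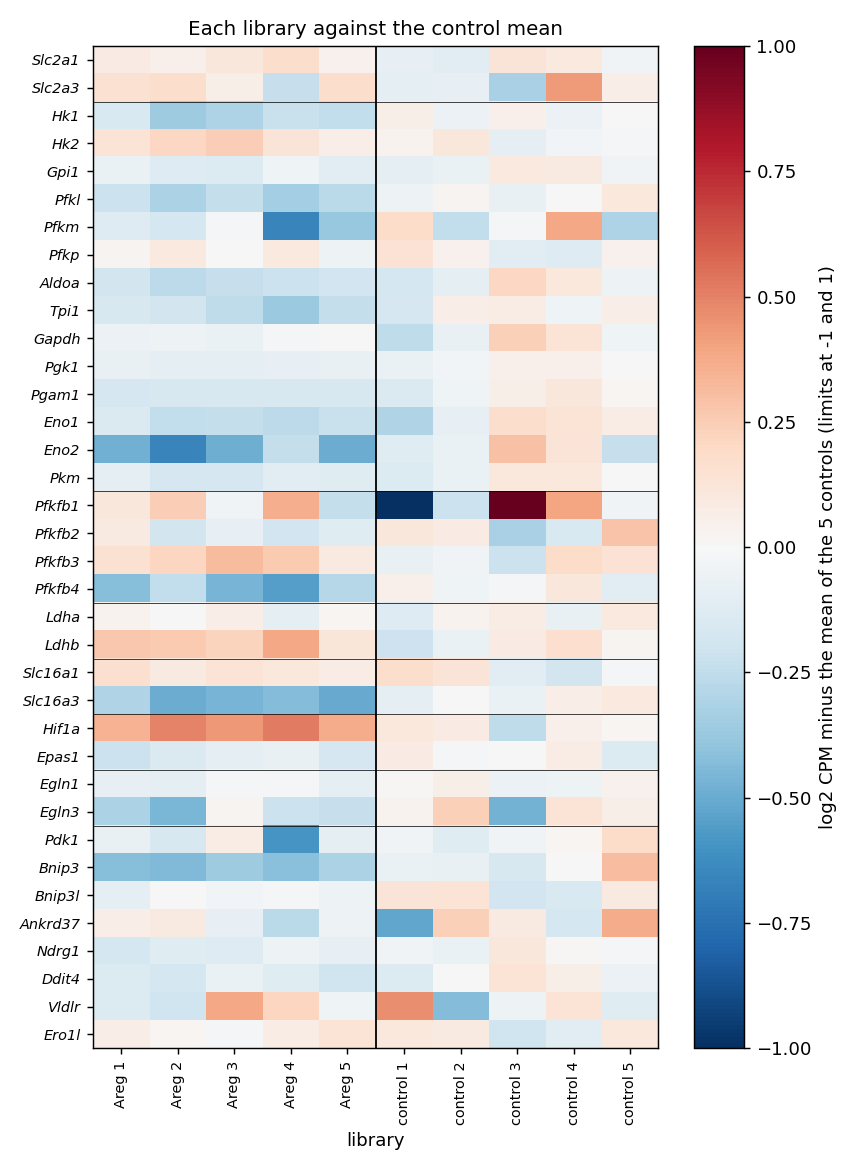
Log2 CPM of each tested gene in each library minus the mean of the 5 controls, Areg libraries 1 to 5 left of controls 1 to 5, genes in order of role, colour limits at -1 and 1. Controls 3 and 4 share raised values of 8 glycolytic enzyme genes, among them Aldoa, Gapdh, Eno1 and Pkm, and the SD of CPM is wider among controls than among Areg libraries for 33 of the 36 genes.

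Control libraries varied more than Areg libraries for most of these genes. The SD of CPM was wider in controls for 33 of the 36 tested genes (91.7%), against 76.5% of all tested genes, and for 13 of the 14 tested glycolytic enzyme genes. Among the genes whose highest controls were controls 3 and 4 were Gpi1, Aldoa, Gapdh, Pgk1, Pgam1, Eno1, Eno2 and Pkm. Hk2 and Pfkp had those same libraries as their lowest controls. Without both, 11 of the 38 genes were called, 4 higher (Slc2a1, Pfkfb3, Ldhb and Hif1a) and 7 lower (Hk1, Pfkl, Tpi1, Pfkfb4, Slc16a3, Bnip3 and Bnip3l). Over all 13693 tested genes that fit called 1147 higher and 1031 lower.

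A further alternative, added once the data were known, removed from each library its smooth trend in transcript length and GC content. Then 5 of the genes were higher (Slc2a1, Hk2, Pfkfb3, Ldhb and Hif1a) and 8 lower. Over all 13362 tested genes 1112 were higher and 698 lower in that fit. Among the glycolytic enzymes 1 was higher and 4 were lower, with a median of -0.10. Hk1 stood at -0.11 (edgeR adjusted p = 0.124) and Pfkl at -0.12 (edgeR adjusted p = 0.216). With the trend removed and controls 3 and 4 left out, Hk1 was at -0.15 (edgeR adjusted p = 0.0245), Pfkl at -0.20 (edgeR adjusted p = 0.00529) and the median of the glycolytic enzymes at -0.07. Hif1a, Ldhb, Tpi1, Pfkfb4, Slc16a3 and Bnip3 were called in the same direction with all libraries, without controls 3 and 4, with the trend removed and with both. With an offset for effective transcript length, which changes with the mix of a gene's transcripts, or on a log2(TPM + pseudocount) scale, the calls of Tpi1 (adjusted p from 0.117 to 0.203), Ldhb (0.353 to 0.541), Pfkfb4 (0.0613 to 0.135) and Eno2 (0.0529 to 0.128) were lost in edgeR and limma. With the offset the log2 fold change shrank to -0.16 for Tpi1 and 0.17 for Ldhb, but grew to -0.52 for Pfkfb4 and -0.63 for Eno2. The offset also ended the calls of Pgam1 (edgeR adjusted p = 0.0579) and Eno1 (edgeR adjusted p = 0.0624). On log2(TPM + 1) with no filter those of Eno1 (limma adjusted p = 0.0622) and Hk1 (limma adjusted p = 0.0523) were lost.

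**Figure D4:**
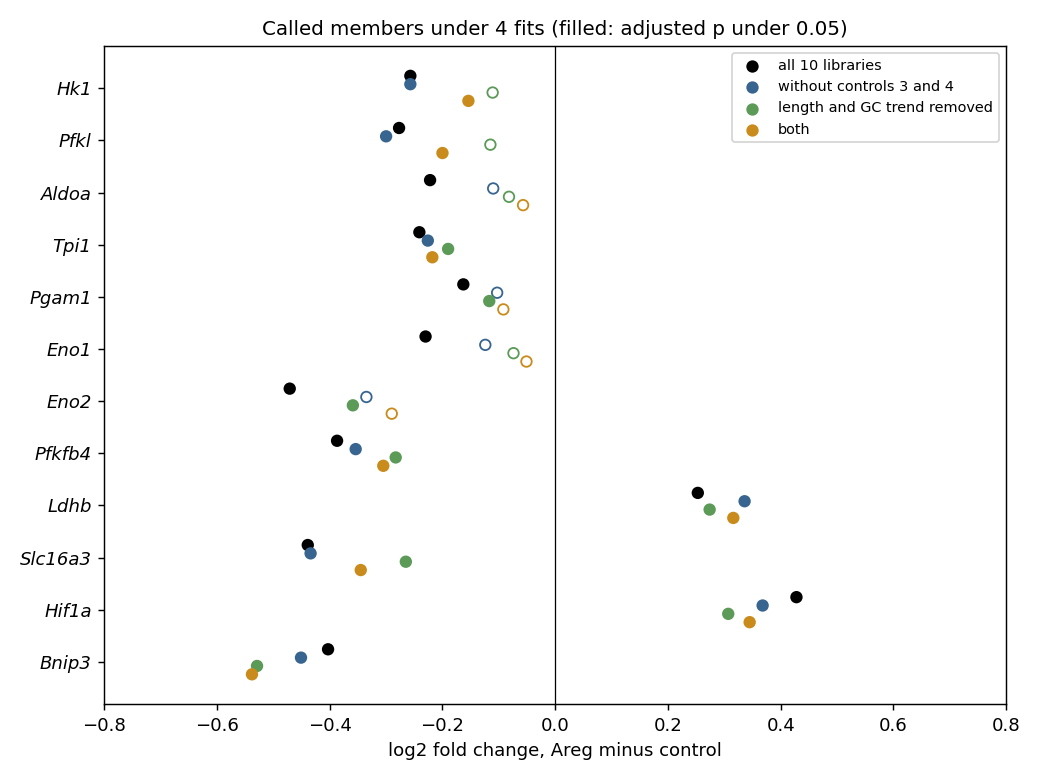
Log2 fold change (Areg minus control) of the 12 called genes under 4 fits, filled where the edgeR adjusted p was under 0.05. Hif1a stays between 0.31 and 0.43 and Bnip3 between -0.54 and -0.40, while Aldoa and Eno1 are filled in the fit on all 10 libraries alone.

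Per length, the 15 glycolytic enzyme genes together gave 4877, 4757, 4799, 4892 and 4966 TPM in Areg libraries and 5019, 5103, 5701, 5503 and 5144 TPM in controls. The means were 4858 ± 82.2 TPM with Areg and 5294 ± 293 TPM in controls (SD, n = 5 each), and the highest sums were those of controls 3 and 4. In CPM the same genes summed to 4374 to 4504 in Areg libraries and to 4323, 4627, 5326, 5155 and 4765 in controls, so control 1 lay above every Areg library in TPM and below every Areg library in CPM. In this sum Gapdh was the largest part, with 1773 ± 75.8 TPM in Areg and 1798 ± 187 TPM in control libraries. Pkm followed with 911 ± 20.5 TPM in Areg and 1025 ± 33.2 TPM in control libraries, and Aldoa with 829 ± 25.3 TPM in Areg and 978 ± 57.1 TPM in control libraries (SD, n = 5 each). Next in level came Pgk1, Ndrg1 and Gpi1 between 352 and 459 mean TPM. The level of Hif1a was 241 ± 11.7 TPM in Areg and 184 ± 21.5 TPM in control libraries, so that with Areg it stood beside Ldha (235 ± 10.7 TPM in Areg libraries) and Slc2a1 (234 ± 11.8 TPM in Areg libraries), from which it did not differ beyond the SD. The 9 other HIF targets summed to 843 ± 12.5 TPM in Areg and 929 ± 40.4 TPM in control libraries (SD, n = 5 each).

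**Figure D5:**
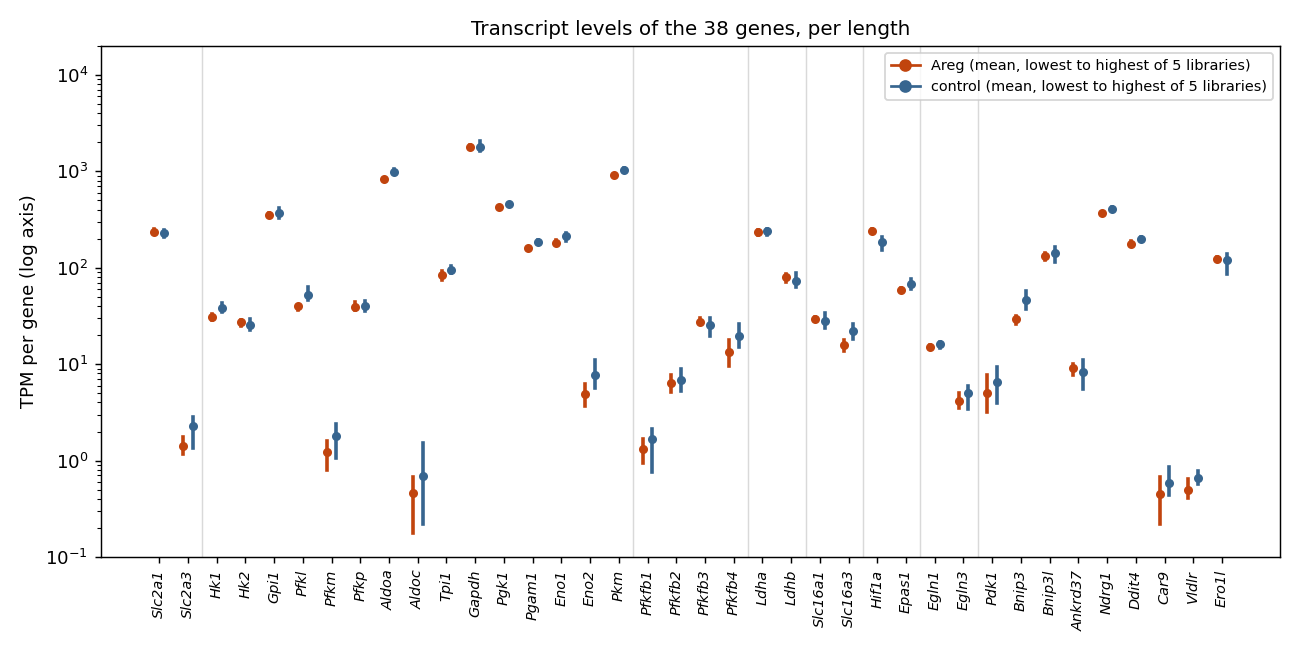
TPM per gene on a log axis for all 38 genes in order of role, as the mean (point) and the lowest to highest of 5 libraries (line), Areg left of control. Levels run from Gapdh at 1773 mean TPM with Areg down to Aldoc, Car9 and Vldlr, all under 1 mean TPM in both groups.

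Pkm makes 2 enzymes from alternative exons of equal length, 167 bases each. The exon of the PKM1 form lies at 59675029 to 59675195 on chromosome 9 (GRCm38) and that of PKM2, the form of proliferating cells, at 59675568 to 59675734. PKM1 was counted by the transcript Pkm-202 and PKM2 by Pkm-201, and other Pkm transcripts were left out. PKM1 made up 23.3, 22.7, 21.2, 15.3 and 18.1% of both forms in Areg libraries and 17.6, 19.2, 8.29, 8.37 and 18.1% in controls. Controls 3 and 4 were the lowest libraries and the other controls lay within the Areg range. For these Pkm forms the mean difference was 5.79 percentage points, with a two-sided exact permutation p of 0.0873, and without controls 3 and 4 it was 1.80 points (exact p = 0.393). Without Areg 4, the lowest Areg library, it was 6.99 points (exact permutation p = 0.0317). In TPM, PKM2 averaged 517 ± 22.7 with Areg and 614 ± 58.4 in controls, and PKM1 130.2 ± 22.9 with Areg and 102 ± 36.7 in controls (SD, n = 5 each).

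The share of a gene's TPM taken by its leading transcript was tested for 25 of the genes, and no share differed after adjustment over the 25 (lowest adjusted p of the exact permutation tests 0.0992, 3 unadjusted under 0.05). The smallest p that 5 libraries against 5 allow is 0.00794, which Tpi1 and Ankrd37 reached. For Tpi1, the transcript Tpi1-205 took 72.7 to 79.5% in Areg libraries and 80.7 to 97.5% in controls, control 3 being highest. For Ankrd37, the intron-retaining transcript Ankrd37-204 took 38.7 to 55.2% in Areg libraries, while in controls it took 29.9 to 31.5% in libraries 1, 2 and 5, 0.000528% in control 3 and 0% in control 4. Ankrd37 had only 2.35 to 3.02 CPM with Areg and 1.97 to 3.655 CPM in controls, so its shares rest on few reads. Some of these may belong to Ufsp2 on the opposite strand, at 18.7 mean CPM with Areg and 17.1 in controls. Bnip3-201, the leading Bnip3 transcript, took 78.7 to 92.2% in Areg libraries and 45.1 to 86.4% in controls (exact p = 0.0317, adjusted 0.265).

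Neighbouring pathways were counted in the same fit, in which 16.7% of all tested genes were called, 8.34% higher and 8.32% lower. Most of the lists below were short and had shares near that background. Of 14 tested genes for other proteins of the HIF pathway, 2 were higher and 1 was lower with Areg (21.4% called, against 16.7% of all tested genes). Cited2, a HIF-induced inhibitor that competes for the coactivator p300, averaged 94.1 ± 6.80 CPM with Areg and 71.0 ± 6.81 CPM in controls (log2 fold change 0.41, edgeR adjusted p = 0.000857). Eloc, the elongin C of the VHL ubiquitin ligase, averaged 49.9 ± 2.65 CPM with Areg and 42.7 ± 1.82 CPM in controls (edgeR adjusted p = 0.0106), but its log2 fold change of 0.23 became -0.05 (edgeR adjusted p = 0.606) with the length and GC trend removed. Crebbp, a coactivator of HIF, averaged 125 ± 6.05 CPM with Areg and 141 ± 11.4 CPM in controls (log2 fold change -0.17, edgeR adjusted p = 0.0489). Its call was lost without Areg 1, 2, 3 or 5 or control 1, 3 or 4, at edgeR adjusted p from 0.0788 to 0.119. Crebbp stood at -0.11 without controls 3 and 4 together (edgeR adjusted p = 0.154).

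Of 29 further reported HIF targets, 5 were higher and 5 were lower (34.5% called, against 16.7% of all tested genes), with a median log2 fold change of 0.005. Angptl4, a secreted inhibitor of lipoprotein lipase, averaged 118 ± 3.40 CPM with Areg and 79.2 ± 7.39 CPM in controls (log2 fold change 0.58, edgeR adjusted p = 1.19e-05). Bhlhe41, a transcriptional repressor of the clock, averaged 5.45 ± 0.965 CPM with Areg and 9.76 ± 0.558 CPM in controls (-0.83, edgeR adjusted p = 0.000307). Hmox1, heme oxygenase, averaged 4351 ± 131 CPM with Areg and 5623 ± 683 CPM in controls (-0.37, edgeR adjusted p = 0.00209). Angptl4, Bhlhe41 and Hmox1 were called under all 25 alternatives.

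The routes that take pyruvate into mitochondria had 2 genes higher and none lower of 13 tested (15.4% called, against 16.7% of all). Pdha1, the pyruvate dehydrogenase subunit, averaged 140 ± 2.02 CPM with Areg and 124 ± 7.10 CPM in controls (log2 fold change 0.18, edgeR adjusted p = 0.0157). Dld, the shared lipoamide dehydrogenase, averaged 141 ± 5.15 CPM with Areg and 118 ± 7.95 CPM in controls (0.25, edgeR adjusted p = 0.00328), and with the length and GC trend removed it was 0.10 (edgeR adjusted p = 0.128). Of 8 tested genes of the pentose phosphate pathway, 1 was higher and 1 was lower (25% called, against 16.7% of all). Rpia, which interconverts the pentose phosphates, averaged 29.3 ± 2.10 CPM with Areg and 23.1 ± 1.30 CPM in controls (0.34, edgeR adjusted p = 0.00247). H6pd, the dehydrogenase of the endoplasmic reticulum, averaged 265 ± 8.52 CPM with Areg and 307 ± 14.7 CPM in controls (-0.21, edgeR adjusted p = 0.0046), and with the length and GC trend removed it was -0.05 (edgeR adjusted p = 0.353).

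Of 18 tested genes of glycogen metabolism, 2 were higher and 2 were lower (22.2% called, against 16.7% of all). Ppp1r3b, which targets a phosphatase to glycogen, averaged 53.4 ± 2.81 CPM with Areg and 33.9 ± 4.79 CPM in controls (log2 fold change 0.65, edgeR adjusted p = 8.41e-05). Pgm2, a phosphopentomutase with some activity on glucose phosphate, averaged 138 ± 2.67 CPM with Areg and 107 ± 5.16 CPM in controls (0.37, edgeR adjusted p = 8.04e-05). Gys1, the glycogen synthase of most tissues, averaged 48.2 ± 2.41 CPM with Areg and 57.04 ± 3.15 CPM in controls (-0.24, edgeR adjusted p = 0.00807), and with the length and GC trend removed it was -0.12 (edgeR adjusted p = 0.125). Phkg2, a phosphorylase kinase subunit, averaged 22.9 ± 1.12 CPM with Areg and 26.9 ± 2.71 CPM in controls (-0.23, edgeR adjusted p = 0.0381). The call of Phkg2 was lost without Areg 2, 3, 4 or 5 or control 1, 3 or 4, at edgeR adjusted p from 0.0674 to 0.1. Phkg2 stood at -0.16 without controls 3 and 4 together (edgeR adjusted p = 0.138).

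Gluconeogenesis had 2 genes lower and none higher of 7 tested (28.6% called, against 16.7% of all). Pck2, the mitochondrial carboxykinase, averaged 82.0 ± 3.45 CPM with Areg and 99.7 ± 5.37 CPM in controls (log2 fold change -0.28, edgeR adjusted p = 0.00156). Pcx, pyruvate carboxylase, averaged 28.6 ± 0.723 CPM with Areg and 34.2 ± 4.29 CPM in controls (-0.25, edgeR adjusted p = 0.0314). The call of Pcx was lost without any of the Areg libraries, control 3 or control 4, at edgeR adjusted p from 0.0517 to 0.0889, and its value was -0.06 with the length and GC trend removed (edgeR adjusted p = 0.579). Pcx stood at -0.13 without controls 3 and 4 together (edgeR adjusted p = 0.182). Of 5 tested genes of serine synthesis, 1 was higher (20% called, against 16.7% of all), Psat1, the phosphoserine aminotransferase, at 158 ± 4.32 CPM with Areg and 138 ± 3.19 CPM in controls (0.20, edgeR adjusted p = 0.0044). A last list held other glucose transporters, other isoforms of the glycolytic steps and related proteins, among them Bsg, Bpgm, Ldhd and Tigar. None of its 16 tested genes was called by edgeR or by DESeq2. Of the 16, 3 had an unadjusted p under 0.05, a smaller share than the 31.4% of all tested genes. On the log2(TPM + 1) scale Eloc, Crebbp, Pdha1, Dld, Rpia, Gys1, Phkg2, Pcx and Psat1 were not called (limma adjusted p from 0.0517 to 0.225). With the offset for effective transcript length Eloc, Crebbp, Rpia, Gys1, Phkg2 and Pcx were not called (edgeR adjusted p from 0.0586 to 0.279). All SDs in these lists are over 5 libraries per group.

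Reads of near-identical copies and of overlapping genes limit some values. The related sequence Pgk1-rs7 took at most 3.48% of the reads of its pair with Pgk1, and the other named copies of Eno1, Tpi1, Aldoa, Gapdh, Pgam1 and Ldha took at most 0.412%. Expressed genes on the opposite strand overlap Pfkm (Senp1), Pfkp (Pitrm1), Tpi1 (Spsb2), Gapdh (Iffo1), Pfkfb1 (Apex2), Pfkfb2 (Yod1) and Ankrd37 (Ufsp2). The strand setting of the counting is not given in the sources used here, so reads of those pairs may not be told apart. Of these overlapping genes Senp1, at 46.0 mean CPM with Areg and 45.2 mean CPM in controls, exceeded its partner Pfkm, as Pitrm1, Apex2, Yod1 and Ufsp2 did theirs.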

How the data were processed

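Poly-A RNA of 10 libraries was measured, 5 Areg and 5 control, grouped by the labels. For each transcript, the deposited files give estimated counts from kallisto (expected counts, often not whole) and TPM per transcript, which the authors' run scaled to transcript length and to a fixed total, with transcript and effective lengths, per the file headers. Tools named in the submitters' processing notes were bcl2fastq 2.19, kallisto 0.44.0 and DESeq2, with the build GRCm38.p6, without their roles. Strand setting and transcript set: not given in the sources used here. Estimated counts were summed per gene through GENCODE M21 (GRCm38), which matched 116816 of 118489 transcripts, the other 1673 holding 0.736 to 0.778% of the counts. They were rounded to whole numbers and tested over all genes with edgeR 4.0.16 in R 4.3.3 (quasi-likelihood, robust, TMM factors, filterByExpr with a minimum count of 10, Benjamini-Hochberg over 13362 genes, threshold 0.05). CPM values are TMM-scaled, and each SE is the log2 fold change over the root of its F statistic. Differences in transcript shares were tested by exact permutation, two-sided.

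The genes and lists were chosen with earlier results of these data known. Every one of the 38 genes is accounted for. Values per library are given for those called and for the 2 HIF subunit genes, and of each pathway list up to 4 called genes with the smallest p are named. The values of 1 gene that this rule picks are not reported here. A second gene entry also named Aldoa, at 1 TPM or less, was not used. Chi-square per degree of freedom between libraries of the same group was 3.74 to 50.4, more than counting gives, and each was counted once. Alternatives were other factors, filters and tests (DESeq2 1.42.0, limma 3.58.1), length offsets, TPM scales, the replicate number as a block, libraries left out, copies added and trends removed.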

Additional observations from a re-analysis of the deposited data

Results flagged for a closer look

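A single value among the 72 groups of 5 libraries examined (36 genes in 2 groups) stood far from the rest of its group. Hif1a in control 3 was at 407 CPM, where the other 4 controls lay between 490.1 and 521 CPM, and the gap was 0.729 of the range of the controls, above the critical value of 0.71. Chance flags about 1 in 20 such groups. Control 3 is also the shallowest library. Without controls 3 and 4 the log2 fold change of Hif1a was 0.37 (edgeR adjusted p = 8.18e-06), against 0.43 with all libraries.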

How the results depend on the processing

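With the length offset 1149 genes were called (617 higher, 532 lower) and 6 of the 38 (1 higher, 5 lower), on log2(TPM + 1) 871 genes (324 higher, 547 lower), on log2(TPM + 0.1) 887 (330 higher, 557 lower), and on log2(TPM + 1) with no filter 410 genes (154 higher, 256 lower) and 7 of the 38 (1 higher, 6 lower); the cause was not tested. With the length and GC trend removed 1810 genes were called, 1112 higher and 698 lower. Leaving out each library in turn gave 1364 to 2314 genes (1364 without Areg 2), 8 to 14 of the 38, and for the Pkm forms a difference of 4.29 to 7.02 points, with an exact permutation p of 0.0317 without Areg 4 (6.99 points). Gapdh turned from -0.05 to 0.12 (edgeR adjusted p = 0.0439) with the trend removed and controls 3 and 4 left out. The deviations of same-numbered libraries from their group means had correlations of -0.0465 to 0.144. The best match had the same number for replicates 2 and 4 and another number for replicates 1, 3 and 5. Controls 3 and 4 stood apart from the other controls, so this check cannot exclude a pairing. With the replicate block 2357 genes and 12 of the 38 were called (2 higher, 10 lower), Eno1 being lost and Ddit4 gained, no transcript share was called, and the Pkm forms had a sign-flip permutation p of 0.0625, the smallest possible. Of 300 values of the 12 called genes under the 25 alternatives, 246 kept the call, and 3 genes (Hif1a, Slc16a3 and Bnip3) kept it under all. Depth limits Aldoc, Car9, Vldlr, Pfkfb1, Pfkm and Ankrd37 most.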
